A study of Mus musculus with 17 samples.

Results

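Valsartan-treated infarcted hearts (MI+Val) were compared with untreated infarcted hearts (MI) by whole-genome expression arrays at 4 weeks after coronary ligation. The members are the 11 arrays whose labels name these groups, 5 of MI+Val and 6 of MI, out of 17 arrays in the series. All probes of these arrays entered, and 8236 genes had a probe bright enough to test. The other 6 arrays, from sham-operated hearts (sham), helped to estimate the spread between mice and showed the level without an infarct. Each array held RNA of a single female mouse of the C57/BL6 strain, taken from the posterior and inferior wall of the left ventricle outside the infarct. The labels give an age of 8 to 10 weeks, which the methods give for the mice that entered the study. The hearts were taken at 4 weeks after surgery. Infarcted mice had been randomized only if the ejection fraction by magnetic resonance at 24 hours lay between 35% and 45%. MI+Val mice then drank valsartan at 1 mg/kg/day and MI mice drank water only. Hearts with less or more early dysfunction are therefore not represented in either infarcted group, and scar tissue was not sampled.

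Angiotensin II is made from angiotensinogen by renin and angiotensin-converting enzyme, and acts on the heart mostly through its type 1 (AT1) receptor. In rodents this receptor is known to promote growth of cardiomyocytes, the fetal gene programme and the deposition of extracellular matrix by fibroblasts. Valsartan occupies the AT1 receptor and leaves the type 2 receptor free. The comparison asks which transcripts of the surviving wall differ when this receptor is blocked after an infarct, including transcripts with little estimated difference between MI and sham.

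The arrays measured transcripts by the fluorescence of probe-coated beads, given here as a log2 signal after background correction and quantile normalization. An array had 14366 to 14876 detected probes in MI+Val mice and 13929 to 15206 in MI mice. No pair of arrays held the same values. The arrays lay on 3 chips, and MI mice 1 to 4 shared the first of them with MI+Val mouse 1. The second chip held MI mouse 5 with MI+Val mice 2 and 3, and the third held MI mouse 6 with MI+Val mice 4 and 5. A difference within a chip therefore rests on a single mouse on one side. Of 21 listed markers of cardiomyocytes, 19 had a named probe and all of these passed the signal filter, whereas none of the 12 lymphocyte markers with a probe did. MI+Val mouse 5 lay closer to the MI mice than the rest of its group for many of the genes below, and results without this mouse are given beside them. The mouse was singled out from these same values. Leaving out the treated mouse nearest to the MI mice widens a difference by construction, so adjusted p-values without it are a description only.

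In limma 0 of 8236 genes (0%) reached an adjusted p under 0.05 between MI+Val and MI, and the smallest adjusted p was 0.0836. At an unadjusted p under 0.05 the comparison gave 760 genes (9.23%), of which 371 were higher in MI+Val (4.5%) and 389 lower (4.72%). At a nominal threshold, an unadjusted p under 0.01 with a fold of at least 1.2, it gave 99 higher (1.2%) and 124 lower genes (1.51%). All mice of MI+Val lay on the same side of all MI mice for 92 genes (1.12%), 48 of them higher (0.583%) and 44 lower (0.534%). The median log2 difference over all genes was 0.004, and 8 genes differed by more than 1 on this scale. Without MI+Val mouse 5, 14 genes passed the adjusted threshold, 3 higher and 11 lower in MI+Val, whereas leaving out any other of the 11 mice gave 0. Below, higher and lower describe MI+Val relative to MI, and counts of higher or lower genes in a list use the unadjusted p under 0.05. Such counts are to be set beside the 4.5% higher and 4.72% lower over all genes. With all mice, some genes named here passed the adjusted threshold under other processing only.

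Of the 12 genes with the smallest p, 9 were lower in MI+Val and 3 higher. Col8a1 (chr16:57624256-57754737, RefSeq GRCm38.p6), a short-chain collagen of vessel walls, had log2 signals of 7.62, 7.62, 7.66, 7.62 and 8.11 in MI+Val mice 1 to 5, against 8.43 to 9.26 (median 8.61) in MI mice. The groups did not overlap, and only mouse 5 came near the lowest MI value. The log2 difference of Col8a1 was -0.97 (standard error 0.17, adjusted p = 0.0836), a 1.96-fold lower level, and it was -1.05, -1.04 and -0.93 within the 3 chips. Itgbl1 (chr14:123659937-123978865), which encodes a secreted protein with integrin beta-like repeats, had 7.31, 6.50, 7.36, 7.49 and 8.00 in MI+Val mice against 8.18 to 8.47 (median 8.30) in MI mice. The MI values of Itgbl1 were close together (SD 0.11) and the treated ones spread out (SD 0.54), with mouse 2 lowest and mouse 5 highest. The log2 difference of Itgbl1 was -0.97 (standard error 0.18, adjusted p = 0.0836). Emp1 (chr6:135362550-135383173), an epithelial membrane protein of the tetraspan family, had 10.76, 11.28, 11.07, 11.29 and 11.16 against 11.56 to 11.94 (median 11.75), again without overlap, a difference of -0.64. For Emp1, MI+Val mouse 5 was not the nearest to the MI mice. Mfap5 (chr6:122513584-122529290), a microfibril-associated glycoprotein, had 9.05, 8.79, 8.80, 9.20 and 9.80 against 9.65 to 10.73 (median 10.18). Here mouse 5 lay inside the MI range, and the log2 difference of Mfap5 was -1.02 (adjusted p = 0.0886) with all mice and -1.19 (adjusted p = 0.0111) without it.

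**Figure D1:**
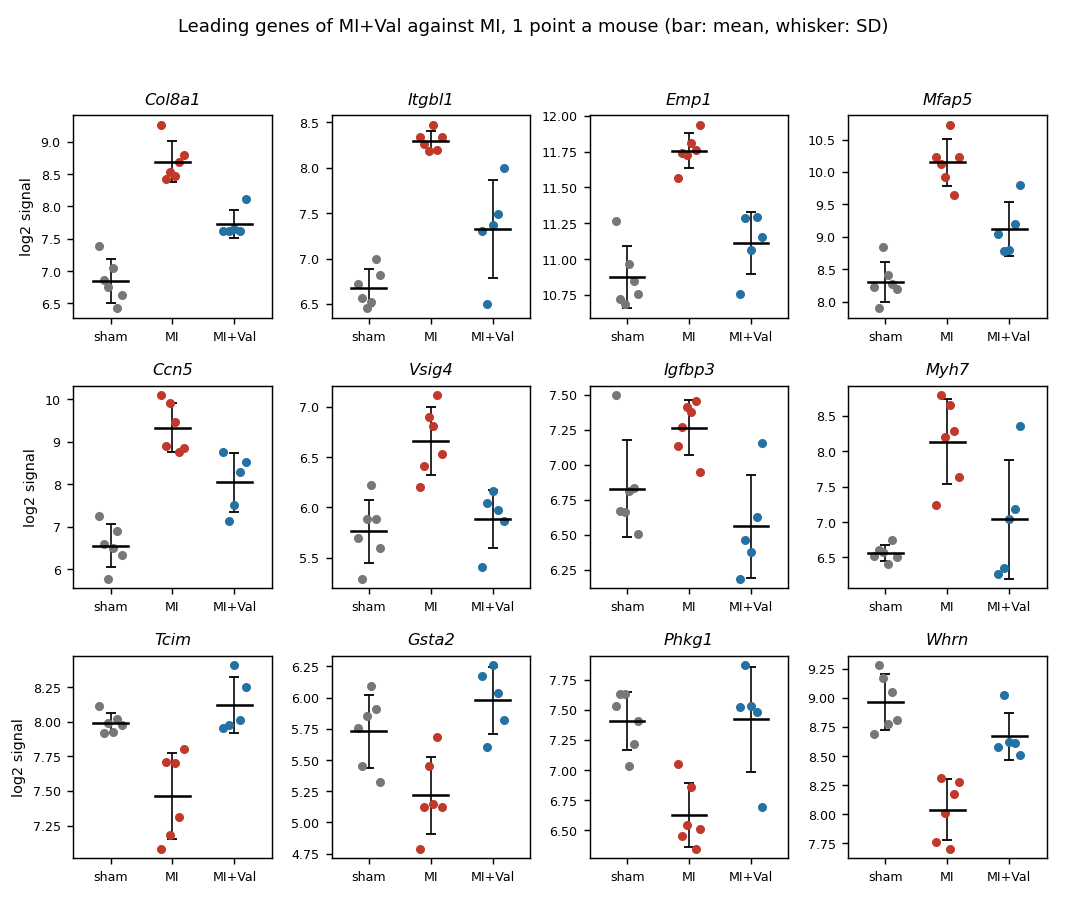
Log2 signal of 12 genes in sham (grey), MI (red) and MI+Val mice (blue), 1 point for each mouse, with the group mean as a bar and the SD as a whisker, and each gene on its own axis. For Col8a1 the MI+Val mice lie between 7.62 and 8.11 and the MI mice between 8.43 and 9.26, and the highest MI+Val point is mouse 5.

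The remaining lower genes among the 12 with the smallest p were Pqlc3 (log2 difference -0.68), Endod1 (-0.50), Serpinf1 (-0.70), Fbln2 (-0.46) and Sulf1 (-0.54), with adjusted p from 0.0886 to 0.135. Serpinf1 encodes pigment epithelium-derived factor, a secreted inhibitor of vessel growth, Fbln2 encodes fibulin-2, which binds elastic fibres and basement membranes, and Sulf1 removes sulphate groups from heparan sulphate outside the cell. Fbln2 had 9.91, 10.16, 10.05, 9.80 and 10.14 in MI+Val mice and 10.40 to 10.58 (median 10.44) in MI mice, and MI+Val mouse 5 did not stand out. Another probe of Fbln2 gave -0.15. The difference of Fbln2 was -0.54, -0.47 and -0.47 within the 3 chips, and that of Serpinf1 was less even, at -0.48, -1.02 and -0.18. With the brightest probe of every gene in place of the most variable, the difference of Sulf1 was -0.69 with an adjusted p of 0.0221.

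RefSeq gave a promoter for 8 of these 12 genes. The promoters of Col8a1 and of the first start of Emp1 are shown because these genes led the comparison and because Emp1 carried the only match to AP-1, a site bound by Fos and Jun proteins, a choice made after the matches were seen. Capitals mark matches to TGANTCA on either strand, and the letters run from 250 bases before to 50 bases after the start in GRCm38.p6.
Col8a1, chr16:57754688-57754987, minus strand: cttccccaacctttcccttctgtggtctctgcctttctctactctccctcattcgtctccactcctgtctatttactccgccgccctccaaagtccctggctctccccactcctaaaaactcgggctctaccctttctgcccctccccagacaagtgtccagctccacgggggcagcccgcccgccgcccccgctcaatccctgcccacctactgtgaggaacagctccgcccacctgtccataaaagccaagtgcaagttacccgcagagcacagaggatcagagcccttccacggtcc
Emp1, chr6:135362681-135362980, plus strand: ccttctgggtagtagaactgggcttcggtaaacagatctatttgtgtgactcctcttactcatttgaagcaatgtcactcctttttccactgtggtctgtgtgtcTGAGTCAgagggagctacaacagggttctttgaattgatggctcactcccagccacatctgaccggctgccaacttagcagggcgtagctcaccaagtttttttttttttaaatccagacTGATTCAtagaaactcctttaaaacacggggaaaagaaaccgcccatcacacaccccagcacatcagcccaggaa
This Emp1 promoter held 2 matches to TGANTCA, which occurs in 7.81% of the 32851 promoters in the table. GGAATG, the site of TEAD factors, occurs on either strand in 14.7% of all promoters and in 0 of the 8 genes. TATAAA, the letters of the TATA box, occurs on either strand in 13.6% and in 1 of the 8, Gsta2. In Gsta2 the match lay on the reverse strand near the upstream end, so it is not named a TATA box there. These are letter matches only, and binding was not measured.

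Comp, Ccn5, Timp1 and Ccn2, which encode secreted proteins, varied between treated mice. Comp, cartilage oligomeric matrix protein, had 7.54, 6.05, 5.16, 6.84 and 7.73 in MI+Val mice against 6.94 to 8.55 (median 8.07) in MI mice. MI+Val mice 1 and 5 lay inside the MI range, and the log2 difference of Comp, -1.33 (standard error 0.41, adjusted p = 0.321), was -0.92 with chip as a block and 0.35 within the third chip. Ccn5, a CCN-family matricellular protein formerly named Wisp2, had 8.75, 7.14, 7.51, 8.29 and 8.53 against 8.77 to 10.11 (median 9.18). The groups did not overlap, but treated mouse 1 lay just below the lowest untreated mouse. The log2 difference of Ccn5 was -1.29 (standard error 0.31, adjusted p = 0.195), 2.44-fold lower, and the MI+Val mean of 8.04 stayed above the sham mean of 6.55. Timp1, an inhibitor of metalloproteinases, had 8.14, 7.14, 7.63, 8.30 and 9.01 against 8.63 to 9.48 (median 9.12). Only mouse 5 was inside the MI range of Timp1, and the difference of -1.05 (adjusted p = 0.233) became -1.29 (adjusted p = 0.0363) without it, while within the third chip it was 0.02. Ccn2, the connective tissue growth factor that angiotensin II induces in cultured cardiac cells, had 11.51, 10.94, 11.19, 11.22 and 12.51 against 11.80 to 12.77 (median 12.03). Mouse 5 was also the only treated mouse in the MI range of Ccn2, and the difference was -0.65 (adjusted p = 0.368) with it and -0.91 (adjusted p = 0.0451) without it.

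Of 22 measured matricellular proteins and proteoglycans, 11 were lower and 0 higher, with a median log2 difference of -0.38 against 0.004 over all genes, where 4.72% were lower and 4.5% higher. Besides Comp, Ccn5 and Ccn2 these included Sparc (-0.52), which binds collagen, Bgn (-0.37), the proteoglycan biglycan, Fstl1 (-0.51), a secreted glycoprotein, and Srpx2 (-0.53). Thbs2, a thrombospondin, was among the 4 members with a difference above 0, at 0.02. With each mouse left out in turn the median of the list lay between -0.48 and -0.30, and under other processing between -0.43 and -0.12, the last with dim probes kept. Of 18 genes of collagen maturation, 6 were lower and 0 higher. Lox, the crosslinking enzyme lysyl oxidase, had 5.31, 5.35, 5.87, 5.75 and 6.13 in MI+Val mice against 5.98 to 6.98 (median 6.32) in MI mice, with only mouse 5 inside the MI range, and Pcolce2, an enhancer of procollagen cleavage, differed by -0.49. Of 21 genes of the basement membrane and adhesion 1 was higher, the laminin chain gene Lama5 (0.46, but -0.15 within the third chip), and 1 lower, Itgbl1, with a list median of -0.01.

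The collagens themselves were split. Of 14 measured collagen genes 3 were lower, namely Col8a1, Col14a1 (-0.56) and Col16a1 (-0.59), and the median was -0.05. Another probe of Col14a1 gave -0.0066. Col1a1, the main fibrillar collagen chain, had 7.28, 7.65, 7.19, 7.60 and 8.15 in MI+Val mice and 6.997 to 7.74 (median 7.39) in MI mice, a log2 difference of 0.20 with a 95% interval of -0.31 to 0.71. Col3a1 differed by 0.08 (interval -0.29 to 0.46) and Col1a2 by -0.26 (interval -0.70 to 0.18), so that a difference in either direction remains within the intervals. Among 15 metalloproteinases and inhibitors Timp1 was the only lower gene, and of 12 elastic fibre genes Fbln2 and Mfap5 were lower, whereas Eln, which encodes elastin, differed by -0.52 (standard error 0.30). Among 21 genes of TGF-beta and activin signalling 3 were lower, with Bmp4 (-0.52) and the receptor Tgfbr1 (-0.31) leading but neither past the unadjusted threshold with chip as a block, whereas the ligand Tgfb1 differed by 0.12 (interval -0.20 to 0.44).

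All 13 listed markers of activated fibroblasts had a named probe, but only 5 passed the signal filter, and Postn, Fap, Tnc and Cthrc1 did not. Of these 5 measured markers 4 were lower, Col8a1, Comp, Meox1 (-0.58), a homeobox factor, and Ddah1 (-0.55). Acta2, smooth muscle actin, had a difference of 0.51 (interval -0.03 to 1.05). Col8a1 and Comp also stand in the matrix lists. The list median of -0.58 was -0.09 when dim probes were kept. Of 14 markers of resident fibroblasts 4 were lower, with Pi16 (-0.61) and Cd248 (-0.49) leading. Pdgfra, a receptor that marks cardiac fibroblasts, had 8.46, 8.71, 8.51, 8.50 and 8.09 against 8.43 to 8.88 (median 8.64), a difference of -0.21 (interval -0.51 to 0.10), and Thy1 and Cd34 differed by -0.02 and -0.02. In tissue RNA, fewer cells of a type and less RNA per cell cannot be told apart.

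**Figure D2:**
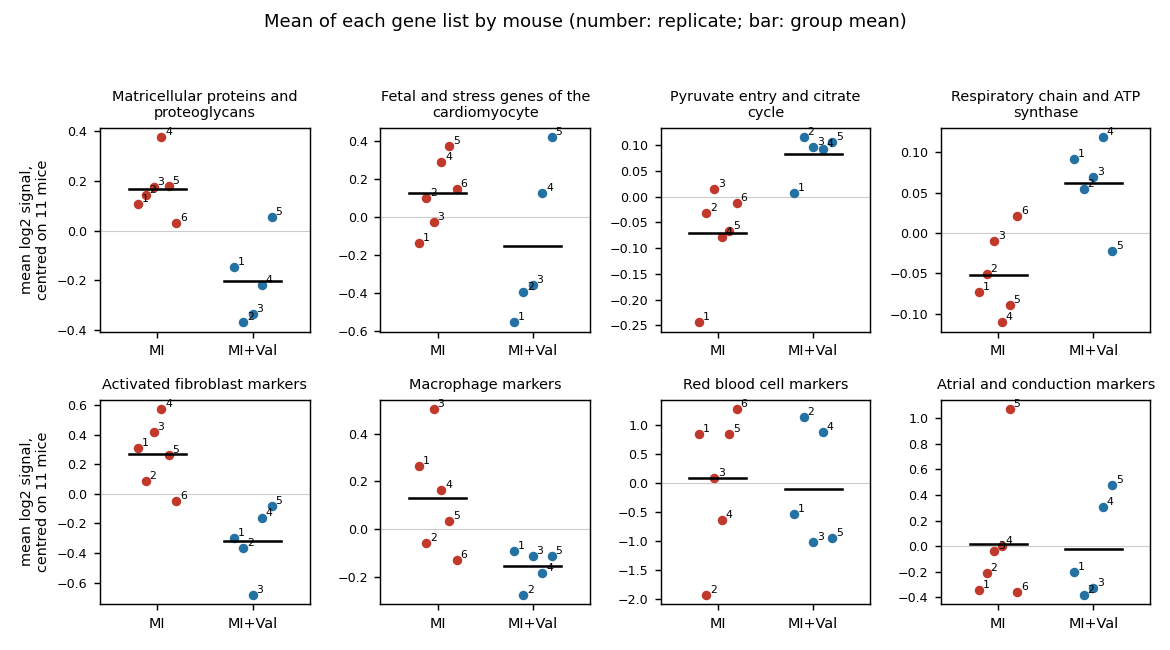
Mean log2 signal of 8 gene lists in each MI (red) and MI+Val mouse (blue), after each gene was centred on the 11 mice, with the replicate number beside each point and the group mean as a bar. MI+Val mouse 5 is the highest treated mouse for the matricellular list (0.05) and for the fetal list (0.42).

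Macrophage markers had 7 lower genes of 23, 0 higher and a median of -0.29, and Lyve1 alone had a difference above 0, at 0.05. Vsig4, a complement receptor of resident macrophages, had 5.41, 6.04, 6.16, 5.97 and 5.86 in MI+Val mice against 6.20 to 7.12 (median 6.67) in MI mice, without overlap (log2 difference -0.78, adjusted p = 0.153). Lyz2, lysozyme of myeloid cells, had 10.70, 10.70, 10.94, 11.07 and 11.40 against 11.16 to 11.98 (median 11.45), with treated mouse 5 inside the MI range, and the difference of -0.54 was -0.012 with another probe. The macrophage marker Adgre1 differed by -0.11 (standard error 0.22) and Csf1r, the receptor for macrophage growth factor, by -0.16 (standard error 0.15). The list mean, centred on the 11 mice, was 0.50 in MI mouse 3 and 0.27 in MI mouse 1, and -0.28 to -0.09 in MI+Val mice, while MI mouse 6 was at -0.13. Within the 3 chips the list median was -0.31, -0.21 and -0.003, the last with MI mouse 6 as the only untreated array.

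Of 12 complement genes 4 were lower, led by Masp1 (-0.49), a protease of the lectin pathway. The median of the complement list, -0.26, was -0.16 with chip as a block, and -0.02, -0.24 and 0.01 within the 3 chips. Of 19 interferon response genes 2 were lower, Ifit3 (-0.64), which inhibits viral translation, and Irf7 (-0.51), a transcription factor of the response. Another probe of Ifit3 gave -0.30. With chip as a block Ifit3 and Irf7 differed by -0.37 and -0.37, no longer past the unadjusted threshold. The interferon list had a mean of 0.60 in MI mouse 1 and 0.32 in MI mouse 3, the mice that were also high for macrophage markers, and its median of -0.20 was -0.07 with chip as a block. The 19 antigen presentation genes gave 0 higher and 0 lower genes.

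Higher levels in MI+Val were spread over genes of unlike function. Tcim (chr8:24437172-24438946), a small regulator of transcription, had 7.96, 7.98, 8.41, 8.01 and 8.25 in MI+Val mice against 7.08 to 7.80 (median 7.51) in MI mice and 7.92 to 8.12 in sham mice. Every treated mouse lay above every untreated mouse, with mice 3 and 5 also above the sham range, and the log2 difference of Tcim was 0.66 (standard error 0.13, adjusted p = 0.103). Gsta2, a glutathione transferase, had 6.17, 5.60, 6.26, 6.04 and 5.82 against 4.79 to 5.68 (median 5.14), a difference of 0.76. Gsta2 was a dim gene, detected on 14 of 17 arrays, and treated mouse 2 lay within the MI range. Phkg1, the catalytic subunit of muscle phosphorylase kinase, had 7.52, 7.87, 7.53, 7.48 and 6.69 against 6.35 to 7.05 (median 6.53). The treated mice other than mouse 5 lay above all MI mice, and the difference of Phkg1 was 0.79 (adjusted p = 0.135) with mouse 5 and 0.97 (adjusted p = 0.0111) without it.

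Herc3 (0.57), a ubiquitin ligase, and Whrn (0.63), which encodes the scaffold protein whirlin, separated the groups, although Herc3 gave 0.24 when dim probes were kept. Whrn had 8.58, 9.03, 8.62, 8.61 and 8.51 in MI+Val mice against 7.70 to 8.31 (median 8.09) in MI mice and 8.69 to 9.28 in sham mice. Spg7, a subunit of a protease of the mitochondrial inner membrane, had 8.93, 8.72, 8.83, 8.79 and 8.89 against 8.05 to 8.54 (median 8.45), a narrow treated group that included mouse 5. The difference of Spg7 was 0.43 with this probe and 0.054 with the brighter one. The rest of the 10 genes that led the higher direction were Nhsl1 (0.48), Mmab (0.44), an enzyme of vitamin B12 metabolism, Ift172 (0.40), a component of intraflagellar transport, and Morn2 (0.40), described below. The other probes of Ift172 gave 0.02 and -0.02, so its direction depends on the probe, and the brighter probe of Mmab gave 0.25.

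Genes of cardiomyocytes differed in both directions. Myh7, the slow myosin heavy chain that rodent ventricle expresses before birth, had 6.27, 6.36, 7.04, 7.19 and 8.36 in MI+Val mice against 7.24 to 8.79 (median 8.24) in MI mice. Treated mice 1 and 2 were below the lowest sham value of 6.40 and mouse 5 was above the MI median. The log2 difference of Myh7 was -1.09 (standard error 0.31, adjusted p = 0.255), and -1.42 (adjusted p = 0.0268) without mouse 5, while within the third chip it was 0.14. Acta1, the skeletal actin re-expressed in stressed heart, had 12.21, 13.08, 12.15, 13.39 and 13.50 against 13.18 to 14.06 (median 13.74), with mice 4 and 5 inside the MI range and a difference of -0.85. Of 17 measured fetal and stress genes 5 were lower and 0 higher, with a median of -0.22. The median was -0.20, -0.36 and 0.06 within the 3 chips, and 2 to 7 genes were lower with a mouse left out. The list mean was -0.55, -0.39 and -0.36 in MI+Val mice 1 to 3, but 0.13 and 0.42 in mice 4 and 5, which shared the third chip.

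The natriuretic peptides, the usual markers of wall stress, differed less. Nppa had 14.34, 14.04, 13.72, 14.41 and 14.60 in MI+Val mice against 14.32 to 14.60 (median 14.46) in MI mice, a log2 difference of -0.24 (interval -0.73 to 0.24). Nppb had 12.99, 13.72, 13.32, 14.22 and 14.47 against 13.54 to 14.52 (median 14.13), a difference of -0.35 (interval -1.12 to 0.42). For Nppb treated mice 1 and 3 lay below the lowest MI value, and both genes are among the bright ones. The mean of 5 atrial and conduction markers was 1.07 in MI mouse 5, 0.31 and 0.47 in MI+Val mice 4 and 5, and near or below 0 in the other mice. Its part in the fetal genes was not tested.

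Myh6, the adult fast myosin heavy chain, had 11.88, 11.78, 12.01, 12.08 and 12.42 in MI+Val mice against 11.26 to 12.01 (median 11.70) in MI mice with the probe used, a log2 difference of 0.38. The brightest probe of Myh6 gave -0.05, so no direction is given for this gene. Of 20 calcium handling genes 4 were higher and 0 lower, with a median of 0.13. Pln, phospholamban, the brake of the calcium pump, had 11.88, 11.95, 12.20, 12.46 and 12.08 against 11.17 to 12.13 (median 11.75) (difference 0.43), with mice 3 and 4 above the MI range. With chip as a block Pln differed by 0.26, no longer past the unadjusted threshold. Atp2a2, the pump itself, differed by 0.21 (standard error 0.16). Among 24 ion channel, pump and junction genes 5 were higher, Scn4b, a sodium channel subunit, at 0.57, and 3 lower, including Kcne1, a potassium channel subunit (-0.88, standard error 0.39).

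Genes of mitochondrial energy metabolism had small differences that were mostly above 0. Of 66 genes of the respiratory chain and ATP synthase 9 were higher and 0 lower, 51 had a difference above 0, and the median was 0.08. Ndufs6, a subunit of complex I, had 11.26, 11.29, 11.47, 11.17 and 11.29 in MI+Val mice against 10.46 to 11.14 (median 10.90) in MI mice, a difference of 0.43. Ndufb10, another subunit, had 9.89, 9.98, 9.86, 10.44 and 9.84 against 9.01 to 9.81 (median 9.54), a difference of 0.53. The groups did not overlap for either gene, but the brighter probe gave 0.046 for Ndufs6 and 0.23 for Ndufb10. Of 24 genes of pyruvate entry and the citrate cycle 6 were higher and 0 lower, with a median of 0.13. With chip as a block the median was 0.07. Cs, citrate synthase, had 12.38, 12.60, 12.44, 12.45 and 12.38 against 12.02 to 12.40 (median 12.15), a difference of 0.29 that became 0.18 with the block, no longer past the unadjusted threshold, and Fh1, fumarase, differed by 0.42. The list mean for the citrate cycle was -0.24 in MI mouse 1, below all other mice.

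Fatty acid oxidation had 4 higher genes of 30, led by Acaa2 (0.46) and Hadh (0.34), enzymes of the oxidation cycle, but Hadh gave -0.35 when dim probes were kept. Acaa2 had 3 other probes, which gave 0.10, 0.036 and 0.08. Of 22 genes of amino acid metabolism 5 were higher, including Gpt, alanine aminotransferase (0.42). Within the third chip the median was 0.02 for the respiratory chain and -0.01 for fatty acid oxidation, against 0.11 and 0.13 in the first.

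Of 26 genes of glucose metabolism 3 were higher, Phkg1 among them, and 1 was lower, Pfkp, the platelet form of phosphofructokinase. Pfkp had 8.23, 8.50, 8.33, 8.96 and 9.31 in MI+Val mice against 8.94 to 9.89 (median 9.19) in MI mice, and treated mice 1 to 3 were below both the MI and the sham range, which began at 8.57. The 19 measured regulators of the PPAR, ERR and PGC-1 families gave 0 higher and 0 lower genes. The 43 genes of the cytosolic ribosome (median -0.01) and 68 of the mitochondrial ribosome (0.05) lay close to the median of all genes.

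**Figure D3:**
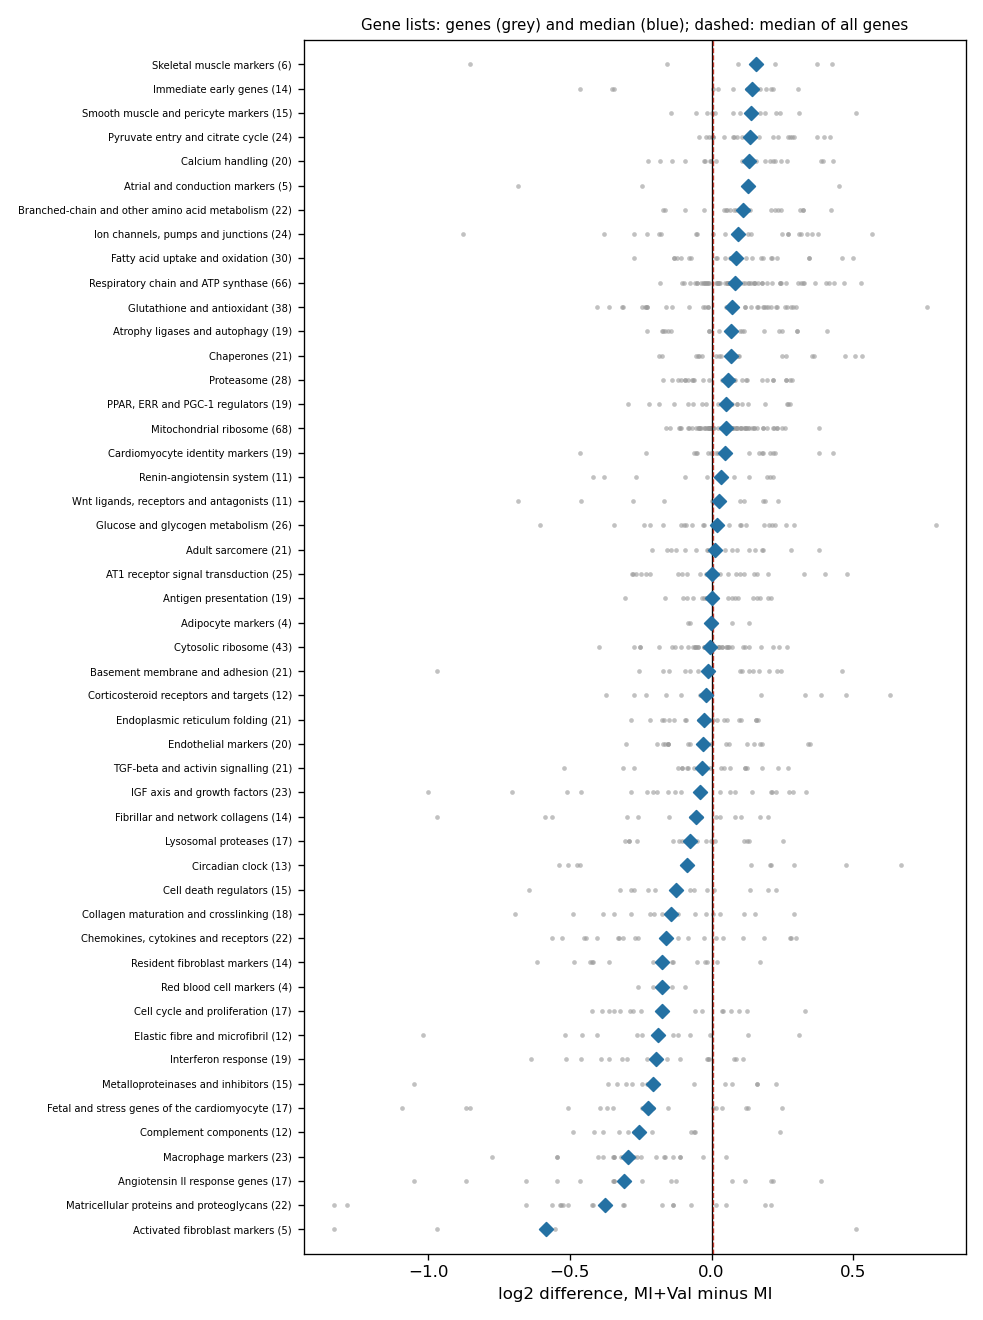
Log2 difference, MI+Val minus MI, of each measured gene (grey points) and the median (blue diamonds) of 49 gene lists with at least 3 measured genes, whose number stands in parentheses. The dashed line is the median of all 8236 genes (0.004), and the list medians run from -0.58 for activated fibroblast markers to 0.16 for skeletal muscle markers.

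The renin-angiotensin genes themselves showed small differences. Of 22 listed, 4 had no named probe in the annotation used, 11 passed the signal filter and 7 did not. Agtr1a, the rodent gene of the AT1 receptor that the drug binds, had 10.22, 10.15, 10.09, 10.08 and 10.04 in MI+Val mice against 9.71 to 10.08 (median 9.91) in MI mice and 10.10 to 10.33 in sham mice. The treated mice lay at the top of the MI range or above it, and the log2 difference of Agtr1a was 0.21 (interval 0.02 to 0.39), which did not pass the adjusted threshold in limma (adjusted p = 0.495). Ace, the converting enzyme, had 7.07, 7.14, 6.95, 6.92 and 7.67 against 7.13 to 7.89 (median 7.57). Treated mice 2 and 5 lay within the MI range, and the difference of Ace was -0.38 (interval -0.71 to -0.04) with mouse 5 and -0.51 without it. Within the 3 chips the difference of Ace was -0.38, -0.46 and -0.59.

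Agt, angiotensinogen, had 5.22, 5.06, 6.34, 5.64 and 6.38 in MI+Val mice and 4.73 to 6.66 (median 6.38) in MI mice, a spread within groups that covers the difference of -0.42 (interval -1.11 to 0.27). Agt was a dim gene, detected on 5 of the 6 MI arrays and 3 of the 5 MI+Val arrays, so part of this spread lies at background. The receptor-associated protein Agtrap differed by 0.20 and the prorenin receptor Atp6ap2 by 0.08, the latter with the other sign in 3 further probes. The peptidases Anpep, Nln and Thop1, which cut angiotensin peptides, differed by 0.03, -0.02 and 0.13. Prcp, a carboxypeptidase that degrades angiotensin II, had a difference of -0.27 (interval -0.54 to 0.002). Agtr1b, Agtr2, the type 2 receptor, Mas1, the receptor for a shorter angiotensin peptide, and Enpep, a peptidase of angiotensin II, were detected on 0 of 17 arrays, so that they were not above background in any group.

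**Figure D4:**
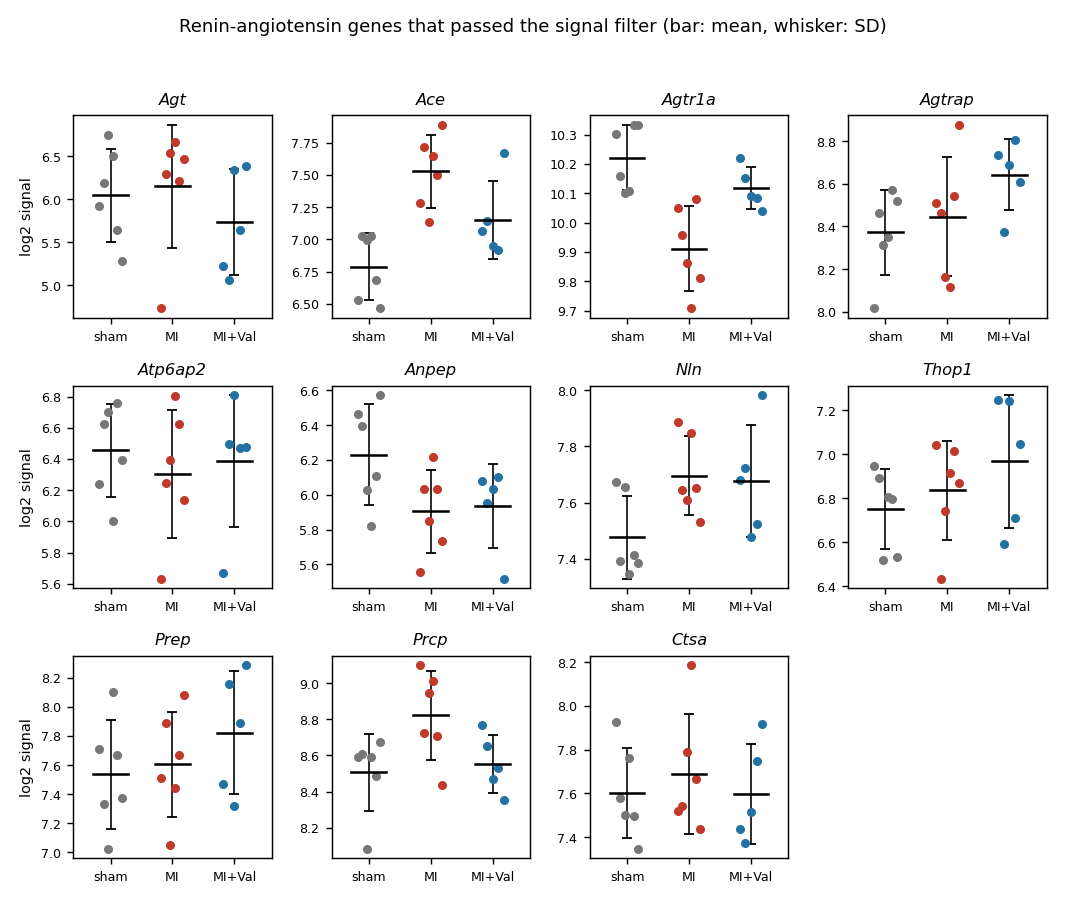
Log2 signal of the 11 renin-angiotensin genes that passed the signal filter in sham (grey), MI (red) and MI+Val mice (blue), 1 point for each mouse, with the group mean as a bar and the SD as a whisker, and each gene on its own axis. The MI+Val mice lie between 10.04 and 10.22 for Agtr1a and between 6.92 and 7.67 for Ace, and the ranges of MI and MI+Val overlap for all 11 genes.

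Downstream of the receptor, 25 genes of AT1 signal transduction had a median difference of 0.002, with 1 gene higher, Prkd1, protein kinase D, and 0 lower. Prkd1 had 5.54, 5.77, 6.12, 5.75 and 6.77 in MI+Val mice against 5.14 to 5.95 (median 5.53) in MI mice, and its difference of 0.48 was 0.25 with chip as a block. Of 17 genes known to respond to angiotensin II, 2 were lower, Ccn2 and Timp1, and 1 was higher, Sgk1, a kinase also under corticosteroid control (0.39). The median of that list was -0.31, and -0.23 with chip as a block. Within the 3 chips it was -0.32, -0.09 and -0.01. The list mean, centred on the 11 mice, was 0.43 in MI mouse 4 and 0.17 in MI+Val mouse 5, against -0.38 to -0.11 in the other treated mice. Sgk1 had 11.36, 11.67, 12.08, 11.43 and 11.81 in MI+Val mice against 10.77 to 11.87 (median 11.25), and it differed by -0.08 within the first chip. The immediate early genes Fos and Egr1 differed by -0.46 (standard error 0.34) and -0.35 (standard error 0.26).

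Transcripts whose estimated MI and sham means lay close together were examined separately. The choice rests on the estimate alone, so for single genes a larger effect of the infarct remains possible. A log2 difference between MI and sham within 0.1 was found for 3143 genes. Because the MI arrays enter both that choice and the comparison with MI+Val, the counts are a description only. Of these, 81 had an unadjusted p under 0.05 between MI+Val and MI and 13 passed the nominal threshold (0.414%), 6 higher and 7 lower, against 2.71% of all genes. The groups did not overlap for 11 of the 3143 genes. Over all 8236 genes, 760 (9.23%) had an unadjusted p under 0.05 and 92 (1.12%) did not overlap.

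Morn2, a small protein with repeats thought to bind membranes, led this set with 7.26, 6.97, 6.95, 7.32 and 6.92 in MI+Val mice, above the MI range of 6.46 to 6.82, and the sham range was 6.63 to 6.96. Its log2 difference was 0.40 (adjusted p = 0.236), and 0.61, 0.26 and 0.30 within the 3 chips. Zfp87, a zinc finger gene, had 6.35, 6.29, 6.36, 6.35 and 6.12, below all MI (6.45 to 7.04) and all sham mice (6.45 to 6.73), a difference of -0.36. Another probe of Zfp87 gave -0.089, and the mean of its probes, at -0.22, did not pass the unadjusted threshold. Msc, which encodes the transcriptional repressor musculin, had 6.37, 6.30, 6.10, 6.90 and 6.41 against 6.57 to 7.28 (median 6.99) in MI mice. The difference of Msc, -0.55, was the largest in size of the 10 genes with the smallest p in this set.

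The other 7 were Rbck1 (-0.33), a component of the linear ubiquitin ligase, Cdc23 (-0.34), a subunit of the anaphase-promoting complex, Sall1 (0.39), a zinc finger factor, Zfp691 (-0.31), 2510039O18Rik (0.30), Gmppa (-0.40), which regulates synthesis of GDP-mannose, and Ndufb5 (0.36), a subunit of complex I. The brighter probe of Gmppa gave -0.022. Ndufb5 had 12.06, 11.97, 11.66, 11.86 and 11.46 in MI+Val mice against 11.22 to 11.68 (median 11.43) in MI mice and 11.09 to 11.63 in sham mice. Treated mice 3 and 5 lay inside the MI range of Ndufb5. Within the third chip Ndufb5 differed by -0.02 and Sall1 by -0.18, whereas Morn2, Zfp87 and Msc kept their direction in all 3 chips.

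**Figure D5:**
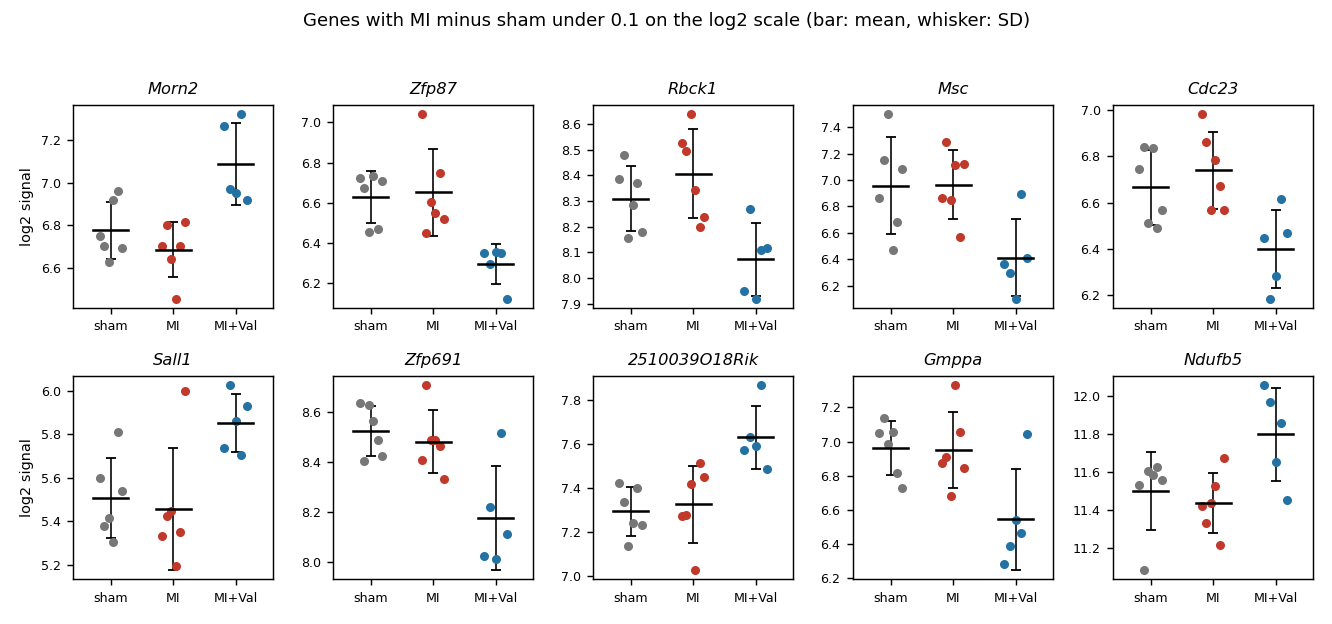
Log2 signal of 10 genes whose MI and sham means differed by less than 0.1, in sham (grey), MI (red) and MI+Val mice (blue), 1 point for each mouse, with the group mean as a bar and the SD as a whisker, and each gene on its own axis. For Zfp87 the MI+Val mice lie between 6.12 and 6.36, below the lowest values of MI (6.45) and sham (6.45) with the probe shown.

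Among growth and stress genes, Igfbp3, a carrier of insulin-like growth factors, had 6.19, 6.46, 6.38, 6.63 and 7.16 in MI+Val mice against 6.95 to 7.46 (median 7.32) in MI mice and 6.51 to 7.50 in sham mice. Treated mice 1 to 3 lay below every sham mouse and only mouse 5 lay inside the MI range. The log2 difference of Igfbp3 was -0.71 (adjusted p = 0.202) and -0.85 (adjusted p = 0.0363) without MI+Val mouse 5. Vegfc, a growth factor for lymphatic vessels, had 7.47, 8.15, 8.07, 8.10 and 7.47 against 8.16 to 8.49 (median 8.27), without overlap (difference -0.46). Of 31 listed cell cycle genes with a named probe 17 passed the signal filter. Of these 17 genes 4 were lower and 0 higher, led by Odc1 (-0.32), the first enzyme of polyamine synthesis, and Mcm5 (-0.39), a replication helicase subunit. The list median of -0.17 was -0.04 with chip as a block, and 0.006, -0.08 and 0.05 within the 3 chips. Nupr1, a nuclear stress protein, differed by -0.64. Of 21 chaperones 4 were higher, including Hsph1 (0.36) and Dnajb1 (0.35). Of 38 genes of glutathione and antioxidant defence 6 were higher and 4 lower.

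Of 20 endothelial markers 1 was lower, Egfl7 (-0.30, and -0.19 with another probe), and Pecam1 differed by -0.08 (interval -0.38 to 0.23). Of 15 smooth muscle and pericyte markers 1 was higher, Abcc9, a potassium channel subunit (0.31), and 12 had a difference above 0, with a list median of 0.14. Over all genes 4.72% were lower and 4.5% higher, so 1 gene in either list is near that share. When dim probes were kept Abcc9 gave 0.12. Of 6 markers of skeletal muscle 2 were higher, Myh8, a perinatal myosin heavy chain (0.42), and Ckm, muscle creatine kinase (0.22), and 1 was lower, Acta1, with a list median of 0.16. The 4 red blood cell genes measured ranged widely, with list means of -1.92 to 1.28 in MI mice and -1.01 to 1.14 in MI+Val mice, and the haemoglobin gene Hba-a1 had a difference of -0.26 (interval -1.12 to 0.60). None of the 13 measured clock genes was higher or lower by the unadjusted threshold. MI+Val mouse 5 had the highest list mean of the 11 mice for clock genes (0.59) and for corticosteroid receptors and targets (0.79), and their part in the results that turn on this mouse was not tested.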

How the data were processed

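RNA of 17 hearts (6 sham, 6 MI, 5 MI+Val) was hybridised to mouse whole-genome Illumina BeadChips. The authors deposited bead signals as intensities, with detection p-values, and separately log2 values that were variance-stabilized and normalized by robust splines (lumi in R 3.0.1, per the submitters' notes). For the present tests background was estimated through the detection p-values and removed from the intensities (limma 3.58.1 in R 4.3.3, offset 16). The result was quantile normalized and taken to log2, a scale on which the offset shrinks differences of dim genes. Of 45281 probes, 34885 carried 1 gene symbol, 18 several and 10378 none in the annotation used. As in the methods of the study, a probe entered if its signal at the 33rd percentile reached 125, and each gene was represented by its probe of widest interquartile range. That range is taken over the same arrays, so it can favour a probe with a larger group difference. Of the genes with values 43 had further probes, and 46 of these 55 probes had the same direction. The filter on variance in those methods was not applied. The 3 groups were fitted in a single limma model with Benjamini-Hochberg adjustment over 8236 genes, and intervals are 95% intervals from its moderated variance. The code was tested on simulated data. The number of arrays limits the precision. Each array is labelled as a separate sample, so p-values measure the spread between arrays of separate mice. The main fit has no chip term and the groups lay unevenly over the chips, so differences between chips enter both this spread and the comparison.

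The genes with values were the 12 with the smallest p, the 10 with the smallest p among higher genes and among genes with MI minus sham within 0.1, the 2 with the smallest p in each of 53 lists, the measured renin-angiotensin genes, and a fixed set of genes of cardiac remodelling, 138 in all. Other genes in the text illustrate a list and were chosen after their values were seen. The lists and the comparison were chosen with earlier results of these data known. The labels give the strain as C57/BL6 and column extraction, the methods C57BL/6N and a phenol step before the columns. The methods give 6 mice a group, whereas MI+Val had 5 arrays here. Alternatives changed the background, offset, scaling, filter, probe, weights, variance model, samples in the fit, and chip or replicate block. Others changed the source of the values (deposited log2) or the test, or left out each mouse. The other test was the methods' t-test without the permutation F test that preceded it there. Promoter sequences are those of RefSeq. Plots were made in Python 3.11.15 (matplotlib 3.10.9).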

Additional observations from a re-analysis of the deposited data

Results flagged for a closer look

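A value was singled out where the highest or lowest mouse of a group lay far from the others by Dixon's criterion. This held for 14 of 276 tests of a gene in a group and for 9 of 98 tests of a list mean in a group, where chance gives about 1 in 20. The gene flags are thus about as many as chance gives, and no single flag is read as a trait of a mouse.

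MI+Val mouse 5 was flagged among the treated mice for Col8a1 (log2 signal 8.11, highest), Cry2, a clock gene (7.30, highest), Zfp87 (6.12, lowest), Psmd1, a proteasome subunit (7.43, lowest), and Anpep (5.52, lowest). The same mouse had the highest treated list mean for collagen maturation (0.13), basement membrane and adhesion (0.15) and the adult sarcomere (0.15), and the lowest for the mitochondrial ribosome (-0.11). MI+Val mouse 4 was highest for Herc3 (6.74), for Ndufb10 (10.44) and for the mean of chemokines, cytokines and receptors (0.16). MI+Val mouse 2 was highest for Whrn (9.03), and MI+Val mouse 1 was lowest for pyruvate entry and the citrate cycle (0.0066).

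Among untreated mice, MI mouse 1 was lowest for Pdk2, a kinase that restrains pyruvate entry (8.59), for Agt (4.73) and for the mean of pyruvate entry and the citrate cycle (-0.24), and highest for the autophagy gene Map1lc3a (11.31). MI mouse 2 was lowest for collagen maturation (-0.093) and MI mouse 4 highest for Acta2 (8.93). MI mouse 5 was lowest for Spg7 (8.05) and highest for atrial and conduction markers (1.07), and MI mouse 6 was highest for Sall1 (6.00).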

How the results depend on the processing

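No gene passed an adjusted p under 0.05 with all mice, but several processing choices gave a few: 9 without background correction and with the deposited log2 values, 7 with an offset of 50 and with array weights, 6 with a variance trend and robust estimation, 2 with the mean of all probes, and 1 with scaling to the 75th percentile and with the brightest probe. Leaving out each mouse gave 0 to 14, the 14 without MI+Val mouse 5. The methods' t-test, run here on all 8236 genes, gave 0 after Benjamini-Hochberg adjustment, and 70 higher and 83 lower genes at its nominal threshold. In the methods it followed a permutation F test across the 3 groups and carried no such adjustment. That first step was not repeated, so these counts are not those of the study's own procedure. Genes with an unadjusted p under 0.05 numbered 1364 when dim probes were kept, where 19057 genes were tested. They numbered 552 with chip as a fixed block and 598 to 885 with a mouse left out. At the nominal threshold the 99 higher genes became 49 without background correction, 38 with the deposited values, 158 when dim probes were kept and 60 with chip as a fixed block. The 124 lower genes became 62 with the deposited values. With a mouse left out the higher genes numbered 70 to 132 and the lower 80 to 156, with 80 without MI+Val mouse 3 and 82 without MI mouse 4. The causes were not tested.

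Of 138 genes with values, 94 had an unadjusted p under 0.05, and only for these is a change of sign named below. They kept their direction in 1407 of 1410 values under other processing, in all 1034 with a mouse left out and in 264 of 282 within a chip. Because the 94 were chosen by p on the same mice, this stability is largely fixed by the choice. The other 44 genes kept their direction in 640 of 660, 458 of 484 and 104 of 132 values. With the brightest probe Myh6 gave -0.046 and Psmd1 -0.12, and with dim probes kept Hadh gave -0.35. Within the third chip the sign turned for Comp (0.35), Timp1 (0.024), Myh7 (0.14), Lyz2 (0.078), Ifit3 (0.076), Grn (0.047), Sfrp1 (0.12) and Phlda3 (0.17), and for Sall1 (-0.18), Ndufb5 (-0.019), Lama5 (-0.15), Scn4b (-0.061), Acaa2 (-0.14), Psmb5 (-0.020) and Psmd1 (-0.18). Within the second chip it turned for Ccl6 (0.020) and Ctsc (0.16), and within the first for Sgk1 (-0.076). Of the list medians, 708 of 735 under other processing and 534 of 539 with a mouse left out moved by less than the spread between mice, against 99 of 147 within a chip.

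With the replicate number as a block, 0 genes passed the adjusted threshold and 913 had an unadjusted p under 0.05. Of 5 pairs of same-numbered mice 1 correlated over 0.1 (range -0.06 to 0.43) and 2 mice correlated best with their own number, so the numbers were not taken to pair the mice.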
